A study of Mus musculus with 7 samples.

Results

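Natural killer (NK) and cytotoxic lymphocyte genes were examined in whole bone marrow as a set of 10 named genes out of 35498 genes listed in the data. The set holds the receptors Ncr1, Klrb1c, Klrd1 and Klrk1, the granule genes Gzma, Gzmb and Prf1, the cytokine receptor gene Il2rb, and the transcription factor genes Eomes and Tbx21. The genes are a list of names, without a cut on measured values, and the list was drawn up with earlier results of these data known. All 10 passed the filter on low counts, which left 14238 genes to be tested. The marrow came from female mice at 5 to 6 months of age, either Aim2 knock-out (KO), with 3 libraries, or wild type (WT), with 4 libraries. Aim2 encodes a sensor of cytosolic DNA. The labels give neither the deleted part of Aim2, nor the strain, nor whether each library was 1 mouse, and each p-value below therefore reflects library-to-library spread only, which may be technical. The libraries held between 20300468 and 21099972 estimated reads. Aim2 itself had 157, 47 and 59 reads in KO, against 601, 573, 535 and 533 in WT (edgeR log2 fold change -2.76, adjusted p = 0.028), so KO library 1 kept the most reads of the deleted gene among the KO libraries. Haemoglobin genes took 12.8, 13.7 and 11.3% of the reads of the KO libraries, against 19.9, 15.4, 13.8 and 15.6% in the WT libraries. Immunoglobulin genes took 1.11, 1.72 and 1.62% in KO, against 0.314, 0.649, 0.903 and 0.685% in WT, without overlap. Markers of neutrophils and erythroid cells, which are abundant in marrow, had summed levels of 22156 to 24263 and 109445 to 140980 CPM in KO, and of 17180 to 22367 and 138480 to 220806 CPM in WT (CPM, reads per 1000000 reads of the TMM-scaled library).

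NK cells are innate lymphocytes that develop in bone marrow and kill infected or transformed cells without a rearranged antigen receptor. They read stimulating and inhibitory surface receptors, depend on interleukin-15 through the receptor chain encoded by Il2rb, and mature under the T-box transcription factors Eomes and T-bet (Tbx21). Killing is done by granules that hold perforin, which opens the target membrane, and granzymes, which are proteases that enter through it. Cytotoxic T cells use the same granule proteins, so most of these genes are not private to NK cells.

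The granule genes and the NK receptor gene Ncr1 were the members on which most of the values below turn, and the 250 bases before their RefSeq start sites (GRCm38.p6) are printed 5′ to 3′ along the gene. Capitals mark exact matches on either strand to a T-box core (AGGTGT), a Runx core (TGTGGT) or an extended Ets core (AGGAAGT), short motifs of factor families that act in lymphocytes. The windows are chr14:56262335-56262584 on the minus strand for Gzmb, chr13:113100982-113101231 on the minus strand for Gzma, chr10:61297586-61297835 on the plus strand for Prf1 and chr7:4337465-4337714 on the plus strand for Ncr1.
Gzmb: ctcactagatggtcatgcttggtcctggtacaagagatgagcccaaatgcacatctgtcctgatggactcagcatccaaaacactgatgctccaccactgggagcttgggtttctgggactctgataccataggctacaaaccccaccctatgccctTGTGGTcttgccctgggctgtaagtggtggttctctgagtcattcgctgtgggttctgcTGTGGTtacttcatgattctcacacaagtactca
Gzma: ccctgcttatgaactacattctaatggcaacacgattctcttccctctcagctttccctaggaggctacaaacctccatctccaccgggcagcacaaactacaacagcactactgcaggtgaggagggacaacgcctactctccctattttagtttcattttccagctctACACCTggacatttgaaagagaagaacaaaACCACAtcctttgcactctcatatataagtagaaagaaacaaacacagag
Prf1: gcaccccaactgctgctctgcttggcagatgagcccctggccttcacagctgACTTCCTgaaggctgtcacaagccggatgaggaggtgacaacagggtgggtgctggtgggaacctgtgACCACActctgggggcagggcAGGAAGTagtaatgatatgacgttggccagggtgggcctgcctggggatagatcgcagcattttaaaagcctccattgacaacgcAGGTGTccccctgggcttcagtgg
Ncr1: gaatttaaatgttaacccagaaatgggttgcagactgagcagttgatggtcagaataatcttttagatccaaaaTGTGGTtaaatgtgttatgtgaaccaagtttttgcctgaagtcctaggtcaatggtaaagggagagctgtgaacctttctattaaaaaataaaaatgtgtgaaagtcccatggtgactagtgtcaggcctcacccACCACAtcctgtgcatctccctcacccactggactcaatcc

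The Runx core stood in the windows of 6 of the 8 members found in the promoter table (Gzma, Gzmb, Klrb1c, Klrk1, Ncr1 and Prf1), against 14.0% of all 32851 windows of that length. Gzmb held it at 93 to 88 and at 34 to 29 bases before the start, and both matches lay on the strand of the gene. The T-box core stood in the windows of Gzma and Prf1, at 80 to 75 and 24 to 19 bases before the start, against 11.8% of all windows, and its longer form AGGTGTGA in 0 of the 8 member genes, against 1.12% of windows. The Ets core stood in Prf1, at 198 to 192 and 109 to 103 bases before the start, and in Tbx21, against 7.69% of all windows. The motifs were chosen with these sequences in view, and a match is a stretch of letters, not a shown binding site. Klrd1 and Il2rb had no entry in the table, and Ncr1 had a further, overlapping window starting at 4337474, which is not printed. Members were counted per gene, with a match in any window, whereas the background shares are per window.

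None of the 10 genes passed the test between KO and WT marrow. In the quasi-likelihood test of edgeR, with p-values adjusted over all 14238 genes by the method of Benjamini and Hochberg, 0 of 10 had an adjusted p under 0.05 (lowest 0.359), against 0.646% of all tested genes. DESeq2 and voom with sample weights also called 0 (lowest adjusted p 0.369 and 0.179), against 2.85% and 2.14% of genes. At an unadjusted p under 0.05 there were 2 of 10, Gzmb higher and Gzma lower in KO, against 11.5% of all genes. The same 2 genes were the ones whose KO and WT libraries did not overlap in CPM, against 12.9% of all tested genes (6.95% higher and 5.94% lower in KO). Which genes separate depends on the scale. In TPM, Gzmb, Ncr1 and Klrb1c separated and Gzma did not, and in reads Gzmb, Ncr1, Klrb1c and Klrk1 separated. The shares of all tested genes that separate in TPM and in reads were not computed. Whether the members separate more often than other genes on those scales is therefore not known. Log2 fold changes (KO over WT) were above 0 for 7 members and under 0 for 3, with a median of 0.12, against a median of -0.011 over all tested genes, of which 47.3% were above 0. Standard errors lay between 0.12 and 0.34 on the log2 scale.

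**Figure D1:**
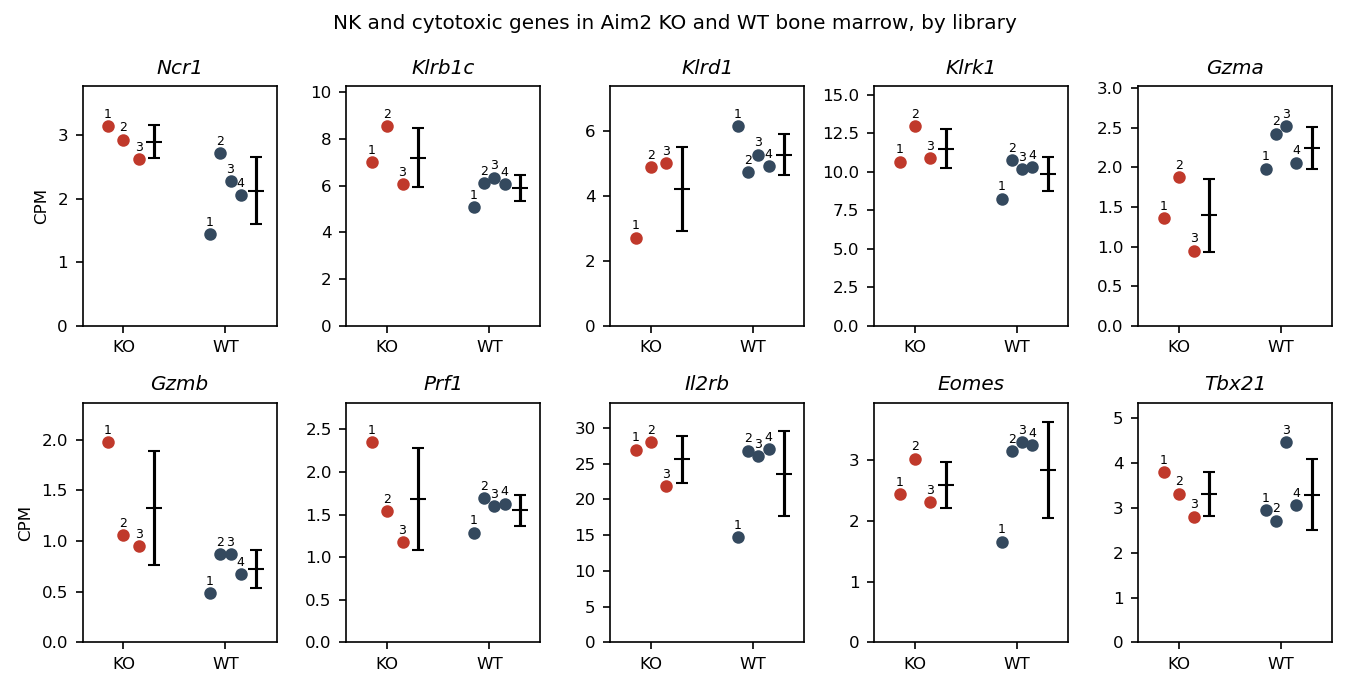
Level of each of the 10 genes in CPM (vertical axes, each starting at 0) in 3 KO libraries (left, red) and 4 WT libraries (right, dark), with the library number beside each point and the mean ± SD in black. Gzma and Gzmb are the 2 genes whose KO and WT points do not overlap in CPM, in opposite directions (in TPM those of Gzma overlap and those of Ncr1 and Klrb1c do not), and WT library 1 is the lowest point of Il2rb and Eomes.

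The granzymes Gzmb and Gzma differed in opposite directions in CPM, and neither passed the test. Gzmb encodes a protease that cuts after aspartate and triggers caspases in the target cell (ENSMUSG00000015437.5, chromosome 14, 56258838 to 56262260, minus strand). It had 42, 22 and 21 reads in the KO libraries, against 9, 18, 18 and 14 reads in the WT libraries. Every KO library lay above every WT library, with KO library 1 far above the others. KO marrow averaged 1.33 ± 0.56 CPM (SD, n = 3), against 0.724 ± 0.19 CPM (SD, n = 4) for WT marrow. The edgeR log2 fold change was 0.86 ± 0.34 (SE, adjusted p = 0.394), with a 95% interval of 0.076 to 1.65. Without KO library 1 the log2 fold change was 0.46.

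Gzma encodes a protease of tryptase specificity stored in the same granules (ENSMUSG00000023132.8, chromosome 13, 113093825 to 113100981, minus strand). It had 29, 39 and 21 reads in KO, against 37, 50, 52 and 43 reads in WT. In CPM every KO library lay below every WT library, although KO library 2, at 1.87 CPM, came close to WT library 1, at 1.98 CPM. That separation rests on the scaling, since KO library 2 lay above WT library 1 in reads and in TPM, at 2.77 against 2.40 TPM. KO marrow averaged 1.40 ± 0.46 CPM (SD, n = 3), against 2.25 ± 0.27 CPM (SD, n = 4) for WT marrow. The edgeR log2 fold change was -0.69 ± 0.25 (SE, adjusted p = 0.359), with a 95% interval of -1.27 to -0.10, and it was -0.67, -0.96 and -0.48 without KO library 1, 2 and 3.

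The ratio of Gzmb to Gzma within a library, on the TPM scale, which corrects for transcript length, does not depend on library scaling. It was 0.754, 0.300 and 0.523 in the KO libraries, against 0.128, 0.188, 0.183 and 0.169 in the WT libraries. The groups did not overlap, and the KO ratios were the more spread out. The ratio of Gzmb to Prf1 was 1.68, 1.39 and 1.60 in KO, against 0.723, 1.01, 1.06 and 0.810 in WT, without overlap. Both ratios share Gzmb, which by itself did not overlap in CPM or TPM, so they are not separate results. Both ratios were chosen after the granzyme values had been seen and are given without a test.

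**Figure D2:**
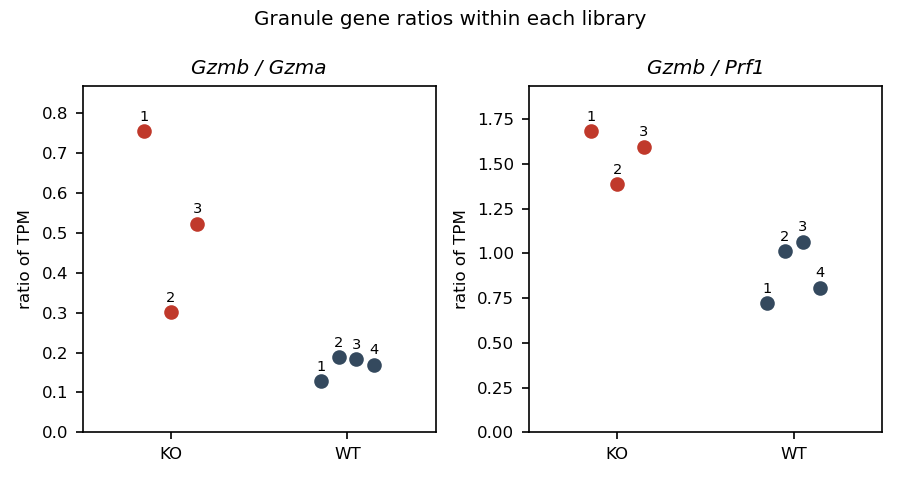
Ratio of TPM values of Gzmb to Gzma (left panel) and of Gzmb to Prf1 (right panel) in each of 3 KO libraries (red, left) and 4 WT libraries (dark, right), with library numbers beside the points. The lowest KO ratio lies above the highest WT ratio in both panels, at 0.300 against 0.188 and at 1.39 against 1.06.

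Prf1, which encodes perforin (ENSMUSG00000037202.6, chromosome 10, 61297833 to 61304680, plus strand), had 50, 32 and 26 reads in KO, against 24, 35, 33 and 34 reads in WT. KO library 1 was the highest and KO library 3 the lowest in CPM, at 2.35 and 1.18, so the KO libraries spanned all WT libraries. Its log2 fold change was 0.12 ± 0.27 (SE; edgeR adjusted p = 0.916), with an interval of -0.49 to 0.73, and it was -0.20 without KO library 1. KO library 1 was thus the highest library for both Gzmb and Prf1.

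Among the receptors, Ncr1 encodes NKp46, a stimulating receptor that marks NK cells and some other innate lymphoid cells (ENSMUSG00000062524.4, chromosome 7, 4337724 to 4345164, plus strand). It had 67, 61 and 58 reads in KO, against 27, 56, 47 and 43 reads in WT. In CPM the KO libraries stood at 3.14, 2.93 and 2.62 and the WT libraries at 1.45, 2.71, 2.28 and 2.06. Only WT library 2 reached into the KO range in CPM. In TPM, where the median of all genes was shifted towards KO, the groups did not overlap. The lowest KO value was 2.20 TPM and the highest WT value 2.09 TPM. KO over WT gave a log2 fold change of 0.45 ± 0.22 (SE; edgeR adjusted p = 0.508), with an interval of -0.070 to 0.96, and it was 0.30 without WT library 1.

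The other receptors belong to the lectin-like family of the NK gene complex on chromosome 6. Klrb1c encodes NKR-P1C, the NK1.1 antigen (ENSMUSG00000030325.16, 128778485 to 128789215, minus strand), and had 149, 178 and 134 reads in KO, against 95, 126, 131 and 127 reads in WT. KO library 3, at 6.06 CPM, lay among the WT libraries, which stood at 5.09 to 6.35 CPM. In TPM, where the median of all genes was shifted towards KO, the groups did not overlap. The lowest KO value was 3.39 TPM and the highest WT value 3.24 TPM. The log2 fold change was 0.28 ± 0.15 (SE; edgeR adjusted p = 0.523), with an interval of -0.058 to 0.63, and it was 0.14 without KO library 2.

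Klrk1 encodes NKG2D, a stimulating receptor for stress-induced ligands (ENSMUSG00000030149.15, 129610323 to 129623864, minus strand). It had 227, 270 and 241 reads in KO, against 154, 222, 210 and 215 reads in WT. The ranges overlapped, since KO library 1, at 10.66 CPM, lay just under WT library 2, at 10.76 CPM. Its log2 fold change was 0.22 ± 0.12 (SE; edgeR adjusted p = 0.553), with an interval of -0.061 to 0.50, and it was 0.13 without KO library 2 and 0.15 without WT library 1.

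Klrd1 encodes CD94, which pairs with NKG2 chains to read the class I molecule Qa-1 (ENSMUSG00000030165.16, 129591782 to 129598775, plus strand). It had 58, 102 and 111 reads in KO, against 115, 98, 109 and 103 reads in WT. KO library 1, at 2.72 CPM, stood far under the other KO libraries, at 4.90 and 5.02 CPM, which lay within the WT range of 4.75 to 6.17 CPM. KO over WT gave a log2 fold change of -0.32 ± 0.23 (SE; edgeR adjusted p = 0.646), with an interval of -0.84 to 0.19, and it was -0.089 without KO library 1.

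Il2rb, which encodes the signalling chain shared by the receptors for interleukin-2 and interleukin-15 (ENSMUSG00000068227.9, chromosome 15, 78479256 to 78495271, minus strand), had the most reads of the set. It had 574, 582 and 484 reads in KO, against 274, 553, 537 and 564 reads in WT. All libraries lay between 21.9 and 27.96 CPM except WT library 1, at 14.7 CPM. The log2 fold change was 0.11 ± 0.21 (SE; edgeR adjusted p = 0.887), with an interval of -0.36 to 0.59, and it was -0.055 without WT library 1.

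Eomes (ENSMUSG00000032446.14, chromosome 9, 118478212 to 118486132, plus strand), whose product sustains mature NK cells, had 52, 63 and 51 reads in KO, against 31, 65, 68 and 68 reads in WT. WT library 1, at 1.66 CPM, was again the low point, and the other WT libraries, at 3.15 to 3.30 CPM, lay above all KO libraries, at 2.44, 3.03 and 2.31 CPM. Its log2 fold change was -0.14 ± 0.26 (SE; edgeR adjusted p = 0.896), with an interval of -0.73 to 0.46. It was -0.32 without WT library 1, and 0.062 and 0.014 on TPM values with pseudocounts of 0.1 and 1, where the median of all genes shifted by 0.14 and 0.11.

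Tbx21, which encodes T-bet (ENSMUSG00000001444.2, chromosome 11, 97098071 to 97115331, minus strand), had 81, 69 and 62 reads in KO, against 55, 56, 92 and 64 reads in WT. The highest value was that of WT library 3, at 4.46 CPM, and the KO libraries, at 2.81 to 3.80 CPM, lay within the WT range. KO over WT gave a log2 fold change of 0.0041 ± 0.22 (SE; edgeR adjusted p = 0.996), with an interval of -0.49 to 0.50. An adjusted p above the threshold does not show equal expression, and the intervals of the 10 genes give the range of changes that these libraries allow. In whole marrow, fewer cells of a type and less RNA per cell cannot be told apart.

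**Figure D3:**
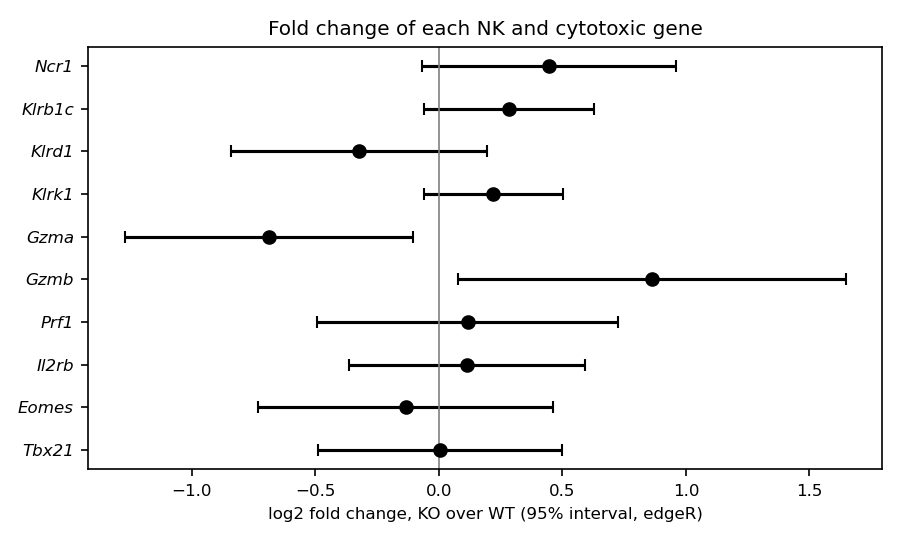
Log2 fold change, KO over WT, of each of the 10 genes (horizontal axis) from edgeR's quasi-likelihood fit, with bars for the 95% interval before adjustment. The intervals of Gzma and Gzmb lie on opposite sides of 0, at -1.27 to -0.10 and 0.076 to 1.65, and those of the other 8 genes include 0.

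WT library 1 stood apart in this set, and in other lists too. It was the lowest of the 7 libraries for 6 of the 10 genes and the highest for Klrd1. WT library 1 also had the largest haemoglobin share. Its summed CPM was the lowest in every NK pathway list. The same held for neutrophil, plasmacytoid dendritic cell, and gamma-delta T and other innate lymphoid markers. It was the highest for erythroid markers, and not the lowest for T cell, B lineage or basophil and mast cell markers. The share of all tested genes that were lowest in WT library 1 was not computed. KO library 1, KO library 2 and WT library 3 were each the highest for 3 genes. The median over the 10 genes of log2(CPM + 0.5), taken relative to the WT mean, was 0.21, 0.20 and -0.063 in the KO libraries, against -0.22, 0.11, 0.12 and 0.014 in the WT libraries. The groups overlapped, with KO library 3 below all WT libraries except library 1. The part of the haemoglobin share in the low values of WT library 1 was not tested. With TMM scaling computed without haemoglobin, immunoglobulin and mitochondrial genes, 0 of the 10 genes passed, and without WT library 1 likewise 0. The 5 tested non-member genes with the most similar profile over the 7 libraries were Lats2, Actn4, Cic, Gak and Furin, with root mean square differences of 0.023 to 0.046 on the log2 scale, and their adjusted p values in edgeR were 0.676 to 0.852.

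Per length, the levels of the set ran from under 1 TPM to nearly 10 TPM. In KO marrow Klrk1 and Klrd1 stood highest, at 8.27 ± 1.68 and 8.12 ± 2.45 TPM (SD, n = 3), followed by Il2rb at 6.29 ± 1.08 TPM. In WT marrow Klrd1 stood at 9.66 ± 0.96 TPM, Klrk1 at 6.19 ± 1.83 TPM and Il2rb at 5.28 ± 1.76 TPM (SD, n = 4). Klrk1 and Il2rb did not differ beyond their spread in WT, nor did Klrk1 and Klrd1 in KO. The lowest level in KO was that of Prf1, at 0.706 ± 0.27 TPM, with Eomes at 0.850 ± 0.085 TPM and Gzmb at 1.11 ± 0.51 TPM next. In WT, Gzmb at 0.557 ± 0.19 TPM, Prf1 at 0.605 ± 0.12 TPM and Eomes at 0.851 ± 0.29 TPM were the lowest. Gzmb and Prf1 lay within each other's spread, while Eomes was above Gzmb in every WT library. The ratio of Klrk1 to Klrd1 was 1.35, 1.09 and 0.768 in the KO libraries, against 0.418, 0.658, 0.750 and 0.717 in the WT libraries, a small gap that was looked for after the values were known.

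The deposited values are per transcript, and the receptor genes used several. Ncr1 reads were split between Ncr1-201 (4337724 to 4345164) and Ncr1-202 (4337769 to 4345164), which share their end. Ncr1-201 took 100, 68.2 and 83.2% of the reads in the KO libraries, against 64.0, 0, 100 and 81.1% in the WT libraries. WT library 2 gave all 56 reads to Ncr1-202 while KO library 1 and WT library 3 gave all theirs to Ncr1-201. The spread inside WT was thus wide and the reads few, and a shift between the groups was not tested. For Klrb1c, Klrb1c-201 took 64.0, 57.1 and 64.6% in KO, against 77.0, 57.6, 65.5 and 65.3% in WT, and nearly all other reads went to Klrb1c-203. For Klrk1 the main transcript was Klrk1-205, with 56.9, 45.5 and 57.5% in KO, against 60.6, 61.8, 52.2 and 56.9% in WT. Klrk1-202 ranged from 6.93 to 29.0% in KO and from 0 to 23.01% in WT. Klrd1 reads went mostly to Klrd1-202, with 82.0 to 84.8% in KO and 71.3 to 83.2% in WT. The intron-retaining Klrd1-204 took 12.1 to 14.96% in KO and 13.0 to 18.4% in WT. Tbx21 and Gzmb have 1 listed transcript each. Salmon divides reads between similar transcripts by a model, so these shares carry an error that the files do not give.

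**Figure D4:**
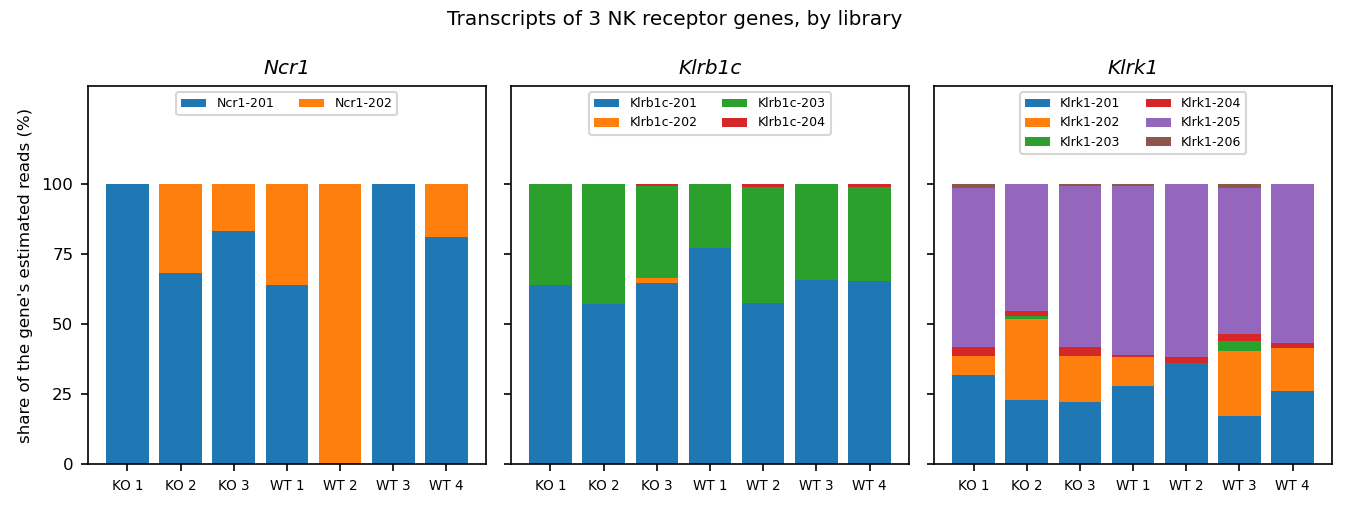
Share of each gene's estimated reads assigned to each annotated transcript (vertical axis, percent) for Ncr1, Klrb1c and Klrk1, with 1 bar per library, KO libraries 1 to 3 on the left and WT libraries 1 to 4 on the right. The Ncr1 split runs from 0 to 100% Ncr1-201 within WT, while Klrb1c-201 stays between 57.1 and 77.0% over all libraries.

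Around the 10 genes, 7 lists of the NK pathway held 117 tested genes, of which 0 passed as higher and 1 as lower in KO by edgeR, against 0.478% and 0.169% of all tested genes. DESeq2 called 3 higher and 3 lower, and voom with sample weights 3 higher and 4 lower, where they called 2.85% and 2.14% of all genes in either direction. At an unadjusted p under 0.05 there were 19 higher and 8 lower, against 6.45% and 5.01% of all tested genes. The median log2 fold change over the 117 genes was 0.081. The gene that passed was S1pr1, the receptor for sphingosine-1-phosphate that lets lymphocytes leave tissues (chromosome 3, 115710433 to 115715072, minus strand). It stood at 16.8, 15.5 and 17.0 CPM in the KO libraries, against 24.7, 25.3, 23.8 and 24.98 CPM in the WT libraries. All KO libraries lay well under all WT libraries, and the groups were tight. The log2 fold change was -0.59 ± 0.073 (SE; edgeR adjusted p = 0.0206). S1pr1 no longer passed when KO library 1 or 2 was left out (edgeR adjusted p of 0.0554 and 0.0913) or WT library 2, 3 or 4 (0.0833, 0.0678 and 0.0533), while the log2 fold change stayed between -0.62 and -0.55. On TPM values in limma, with pseudocounts of 0.1 and 1, it was -0.43 and -0.38 and did not pass (adjusted p of 0.386 and 0.375). In those fits the median of all genes shifted by 0.14 and 0.11. S1pr1 is expressed by T and B cells as well. Its counterpart S1pr5, which serves NK cell exit from marrow, averaged 3.17 ± 1.19 CPM in KO marrow, against 1.90 ± 0.28 CPM in WT marrow, and did not pass (edgeR adjusted p = 0.348). It was named after its values were seen.

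Of 24 tested other NK receptors 0 passed in edgeR, and the median log2 fold change was 0.14. At an unadjusted p under 0.05 there were 4 higher and 1 lower, against 6.45% and 5.01% of all tested genes. DESeq2 and voom each called 1 lower, where they called 2.85% and 2.14% of all genes in either direction. Slamf7, a self-ligand receptor also found on B and plasma cells, averaged 6.64 ± 0.31 CPM in KO marrow, against 13.1 ± 3.97 CPM in WT marrow (log2 fold change -0.98 ± 0.23, SE; edgeR adjusted p = 0.137, DESeq2 0.00394). Slamf7 lies on chromosome 1 at 171632403 to 171653035, near Aim2 at 173350879 to 173466040. The labels do not give the strain, and the part of DNA inherited along with Aim2 in the Slamf7 values was not tested. Lag3, an inhibitory receptor for class II molecules, averaged 9.17 ± 0.99 CPM in KO marrow, against 5.94 ± 1.19 CPM in WT marrow (log2 fold change 0.62; edgeR adjusted p = 0.218). Reads of the lectin-like Klr genes can be shared between similar members, so the split among them is uncertain. Of the 30 listed receptors Cd244 was not matched by this symbol, and 5 had too few reads to be tested.

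Of 20 tested adaptors and signalling genes 0 passed, with 2 lower at an unadjusted p under 0.05 and 0 in DESeq2 and voom, and the median was -0.088. Those 2 were Lck and Zap70, kinases of T and NK cell receptors, which averaged 15.1 ± 2.11 and 3.89 ± 0.49 CPM in KO marrow, against 19.4 ± 0.89 and 5.45 ± 0.82 CPM in WT marrow (edgeR adjusted p = 0.221 and 0.321). On the TPM scale Lck averaged 9.28 ± 1.72 TPM in KO marrow, against 9.65 ± 0.95 TPM in WT marrow. Its log2 fold change there was -0.066 and -0.059 with pseudocounts of 0.1 and 1, against -0.36 in edgeR. The median of all genes shifted by 0.14 and 0.11 between edgeR and these TPM fits. Of 15 tested granule and killing genes 0 passed, with 5 higher at an unadjusted p under 0.05 and 1 higher in DESeq2 and in voom, and the median was 0.13. For both lists, 6.45% of all tested genes were higher and 5.01% lower at that unadjusted p. DESeq2 and voom called 2.85% and 2.14% of all genes in either direction. Ctsc encodes the protease that activates granzymes and, in neutrophils, the granule serine proteases. It averaged 133 ± 16.4 CPM in KO marrow, against 85.6 ± 14.3 CPM in WT marrow (log2 fold change 0.64 ± 0.14, SE; edgeR adjusted p = 0.122, DESeq2 0.00204). Tnfsf10, the death ligand TRAIL, averaged 9.88 ± 0.68 CPM in KO marrow, against 7.14 ± 0.79 CPM in WT marrow (edgeR adjusted p = 0.159). Granzymes Gzmd, Gzmf and Gzmg had 0 reads in all 7 libraries, and Gzmc and Gzme had 3 reads each in KO marrow as a whole, against 3 and 0 reads in WT marrow.

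Of 16 tested cytokine and cytokine receptor genes 0 passed, with 2 higher and 2 lower at an unadjusted p under 0.05, 1 higher in DESeq2 and 2 higher in voom. Over all tested genes, 6.45% were higher and 5.01% lower at that unadjusted p. DESeq2 and voom called 2.85% and 2.14% of all genes in either direction. Jak3, the kinase of the common gamma chain, averaged 45.3 ± 1.75 CPM in KO marrow, against 32.5 ± 3.34 CPM in WT marrow (log2 fold change 0.48 ± 0.090, SE; edgeR adjusted p = 0.0719, DESeq2 8.56e-04). Il2ra, the chain that gives high affinity for interleukin-2, averaged 1.66 ± 0.56 CPM in KO marrow, against 3.46 ± 1.21 CPM in WT marrow (edgeR adjusted p = 0.268). Ifng had 12 reads in all KO libraries together and 12 in all WT libraries together, and was not tested. Of 18 tested other transcription factors 0 passed, with 1 higher and 2 lower at an unadjusted p under 0.05, and 1 lower in DESeq2 and 2 in voom. Klf2, a regulator of lymphocyte quiescence, averaged 45.0 ± 5.09 CPM in KO marrow, against 59.8 ± 3.70 CPM in WT marrow (log2 fold change -0.41 ± 0.092, SE; edgeR adjusted p = 0.121, DESeq2 0.00795), and Prdm1, a repressor that acts late in lymphocyte maturation, averaged 6.47 ± 0.81 CPM in KO marrow, against 4.29 ± 0.68 CPM in WT marrow (edgeR adjusted p = 0.204). Prdm1 is also a factor of plasma cells, and the part of the immunoglobulin share in its values was not tested.

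Of 12 tested trafficking genes only S1pr1 passed, while 4 were higher and 1 lower at an unadjusted p under 0.05. Of 12 tested genes for ligands of NK receptors 0 passed, with 3 higher at an unadjusted p under 0.05, 1 higher in DESeq2 and 0 in voom. At that unadjusted p, 6.45% of all tested genes were higher and 5.01% lower. DESeq2 and voom called 2.85% and 2.14% of all genes in either direction. B2m, the light chain of class I molecules that inhibitory NK receptors read, averaged 1072 ± 64.9 CPM in KO marrow, against 762 ± 148 CPM in WT marrow (edgeR adjusted p = 0.248, DESeq2 0.0316). Nectin2, a ligand of the stimulating receptor CD226, averaged 9.11 ± 0.25 CPM in KO marrow, against 7.40 ± 0.22 CPM in WT marrow (edgeR adjusted p = 0.251).

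**Figure D5:**
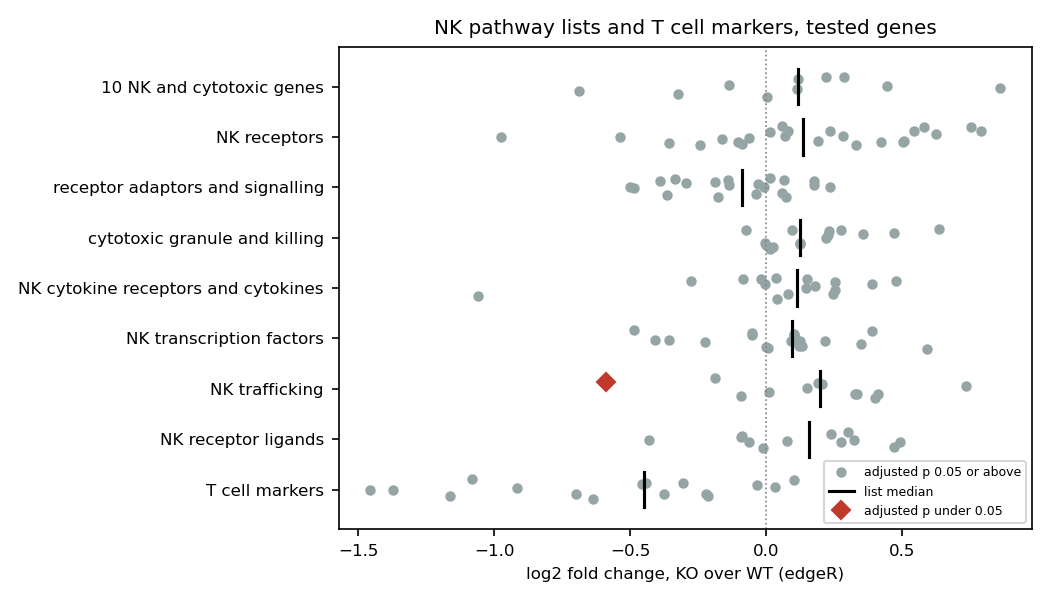
Log2 fold change, KO over WT (horizontal axis), of each tested gene in the 10-gene set, in 7 lists of the NK pathway and in T cell markers, with the list median as a black bar and genes with an adjusted p under 0.05 as red diamonds. S1pr1, at -0.59, is the only diamond, and the T cell markers lie mostly under 0, with a median of -0.45.

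Several of these genes are also used by other marrow cells, whose marker levels are given here beside them. The 16 T cell markers had a summed level of 117, 87.4 and 95.1 CPM in the KO libraries, against 131, 155, 154 and 169 CPM in the WT libraries, without overlap. By edgeR 0 of the 16 passed, with a median log2 fold change of -0.45. At an unadjusted p under 0.05 there were 10 lower, against 5.01% of all tested genes, and 9 did not overlap and were lower, against 5.94%. DESeq2 called 6 lower and voom 4, where they called 2.85% and 2.14% of all genes in either direction. Cd8a, which marks cytotoxic T cells, averaged 3.71 ± 1.152 CPM in KO marrow, against 6.996 ± 1.01 CPM in WT marrow (edgeR adjusted p = 0.144), while the T cell receptor component Cd3e averaged 5.72 ± 1.07 CPM in KO marrow, against 6.63 ± 1.61 CPM in WT marrow (adjusted p = 0.776). Cd8a and Cd3e were named after their values were seen. The 8 B lineage markers summed to 147 to 243 CPM in KO and 326 to 516 CPM in WT, with 0 of 8 passing in edgeR and a median log2 fold change of -0.97. Of these 8, 7 were lower at an unadjusted p under 0.05 (5.01% of all genes), 6 in DESeq2 and 5 in voom (2.85% and 2.14% of all genes in either direction). Basophil and mast cell markers summed to 205 to 419 CPM in KO and 220 to 287 CPM in WT, and the mast cell proteases Mcpt4, Tpsb2 and Cma1 had 0, 1 and 5 reads in KO marrow as a whole, against 1, 3 and 12 in WT marrow. Plasmacytoid dendritic cell markers summed to 233 to 310 CPM in KO and 224 to 284 CPM in WT. Markers of gamma-delta T and other innate lymphoid cells summed to 130 to 154 CPM in KO and 121 to 150 CPM in WT. In these last 3 lists 0 genes had an unadjusted p under 0.05 or passed in any of edgeR, DESeq2 and voom. Of the erythroid markers 0 of 7 passed in edgeR and 1 was lower in DESeq2, and of the neutrophil markers 0 of 8 passed in either, with median log2 fold changes of -0.39 and 0.22. The 10 NK and cytotoxic genes themselves summed to 62.4, 68.1 and 54.7 CPM in KO, against 44.0, 62.0, 62.9 and 61.0 CPM in WT, and those ranges overlapped. The part of the T cell difference in the lower Gzma values was not tested.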

How the data were processed

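Strand-specific mRNA libraries (DNBSEQ) were made from bone marrow RNA in 3 KO and 4 WT samples, per the labels' protocols. FastQC 0.11.9 and Salmon 1.7.0 were used with build GRCm38.p6, per the submitters' processing notes. The annotation release and the options of Salmon are not stated in any source used here. The authors deposited, per transcript, an estimated count, a TPM value and effective length, without further normalization of the counts. Transcripts were joined to GENCODE M21 genes by identifier without version. Of 116546 transcripts, 569 had no gene and were left out.

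Estimated counts were summed per gene, rounded, filtered with filterByExpr (14238 genes kept), scaled with TMM (factors 0.918 to 1.06) and tested with edgeR 4.0.16 (R 4.3.3), quasi-likelihood, KO against WT, with Benjamini-Hochberg adjustment and a threshold of 0.05. SE is the absolute log2 fold change over the square root of F, and 95% intervals use the same fit. DESeq2 1.42.0, limma 3.58.1 (voom with sample weights, and log2 of TPM), other scalings and filters, a replicate block and leaving out each library were alternatives. Steps were tested on simulated data. The member genes had 9 to 582 reads per library.

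The members and lists were chosen with earlier results of these data known. The text names all 10 members, each pathway list's genes past the threshold or else its 2 genes of smallest p, and the 5 genes of most similar profile with a mean of at least 1 CPM. Other named genes were chosen after their values were seen.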

Additional observations from a re-analysis of the deposited data

Results flagged for a closer look

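Il2rb stood at 14.7 CPM in WT library 1, far below the other WT libraries at 26.0 to 26.99 CPM, and the gap took up 0.922 of the range of the group, above the 95% critical value of Dixon's test for 4 samples. Eomes stood at 1.66 CPM in the same library, against 3.15 to 3.30 CPM in the other WT libraries, with a gap of 0.911 of the range. Chance alone marks about 1 in 20 groups in this way, and 10 genes were examined in the WT group. The KO group, with 3 libraries, was not examined.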

How the results depend on the processing

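For the 10 members 0 passed under every alternative run, a threshold of 0.1 included. Of their 159 alternative log2 fold changes 149 kept direction and side of the threshold and 10 changed sign, and the cause was not tested. Eomes was at 0.062 and 0.014 on log2(TPM + 0.1) and log2(TPM + 1), and Tbx21, near 0 throughout, at -0.016 with voom weights and -0.0064 with the replicate block. With libraries left out, Prf1 ranged from -0.20 to 0.32, Il2rb from -0.055 to 0.21 and Tbx21 from -0.11 to 0.19. Gzmb gave no value under the filter of 10 reads in every library.

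The count of all changed genes, 92 (73.9% higher in KO), was 405 with DESeq2 (64.0% higher) and 305 with voom weights (60% higher), 49 and 50 on TPM with the lower and higher pseudocount (87.8 and 90.0% higher), 198 at a threshold of 0.1, and 17 to 65 with a library left out. The NK pathway count of 1 was 6 with DESeq2, 7 with voom weights, 0 on either TPM scale, 2 at a threshold of 0.1 and 0 to 2 with a library left out. With the replicate block over 6 libraries 21 genes changed and 0 of the NK pathway lists, and S1pr1 had an adjusted p of 0.128. The labels state no pairing of the libraries by number. Deviations of same-numbered libraries correlated at 0.12, -0.041 and -0.27 across genes, and KO library 1 correlated best with WT library 3 (0.26). These correlations cannot decide whether libraries were paired or shared a batch. Deviations were taken from the mean of each group, so those of one group are tied to each other. Standard errors were mostly larger for members with fewer reads, though not without exception. They were highest for Gzmb, at 0.34 with 9 to 42 reads, and lowest for Klrk1, at 0.12 with 154 to 270. Il2rb, with the most reads at 274 to 582, had a standard error of 0.21, and of 0.099 without WT library 1.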
